A study of Mus musculus with 8 samples.

Results

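The core circadian clock genes are described here in molars of mouse pups with and without Wdr72. They were chosen by name: the rows of the deposited count table whose gene name is 1 of 10 listed members, and all 10 were found among the 54532 genes of the table. Arntl, Clock and Npas2 make up the positive arm, and Per1, Per2, Per3, Cry1, Cry2, Nr1d1 and Nr1d2 the negative arm. RNA was sequenced from 4 Wdr72-/- libraries (KO 1, 3, 4 and 5) and 4 wild-type libraries (WT 2, 3, 4 and 5), with both groups labelled as C57BL/6 and numbered as in the labels. WDR72, which carries WD40 repeats, is needed for normal maturation of enamel, and the design compared maturation-stage ameloblasts, the epithelial cells that form enamel, with and without it. The labels give the age of both groups as postnatal day 12, while the dissection protocol gives day 13. First molars without pulp were homogenised, so cells other than ameloblasts could contribute RNA, and in such samples fewer cells of a type and less RNA per cell cannot be told apart. The labels give neither the deleted part of Wdr72, nor the pups behind each library, nor the time of day of dissection. The p-values therefore measure only the spread between these libraries, which may be technical, and the part of sampling time in any value was not tested.

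In the mammalian clock, a heterodimer of BMAL1 (the product of Arntl) with CLOCK or its paralogue NPAS2 binds E-box sequences and activates the Per, Cry and Nr1d genes. PER and CRY proteins return to the nucleus and block that activation, while the nuclear receptors REV-ERBα and REV-ERBβ (Nr1d1 and Nr1d2) compete with ROR receptors for RORE sequences and repress Arntl. Transcripts of Arntl and of Nr1d1 therefore peak at opposite times of day in most tissues, and clock proteins are known in ameloblasts and odontoblasts, where enamel and dentin are laid down in daily increments.

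The promoter sequences that connect the arms are shown first, since the comparison of the arms rests on this wiring. RefSeq promoter windows (GRCm38.p6, 250 bases before to 50 after a start) matched 9 of the 10 members, with 13 windows in all. Both strands were searched. The E-box, bound by the CLOCK and BMAL1 dimer, was CACGTG. Its weaker form, the E-prime-box, was CACGTT, which reads AACGTG on the other strand. The D-box, bound by DBP and its relatives, was TTATGTAA. The RORE core, bound by ROR and REV-ERB receptors, was TAGGTCA. The cAMP response element was TGACGTCA. The stretches below are written 5′ to 3′ on the strand of the gene, with the motifs in capitals. They hold an E-box in Per1 (chr11:69098738-69098833, plus strand), an E-prime-box and an E-box in Cry1 (chr10:85185064-85185178, minus strand), an E-prime-box in Nr1d1 (chr11:98775355-98775450, minus strand) and in Cry2 (chr2:92434185-92434280, minus strand), a pair of D-boxes in Per3 (chr4:151044771-151044915, minus strand) and a RORE core in Arntl (chr7:113207496-113207560, plus strand).
Per1: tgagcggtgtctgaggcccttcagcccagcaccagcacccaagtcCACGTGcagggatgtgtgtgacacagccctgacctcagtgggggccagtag
Cry1: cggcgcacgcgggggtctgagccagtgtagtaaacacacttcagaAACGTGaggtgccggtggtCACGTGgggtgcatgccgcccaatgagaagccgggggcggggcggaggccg
Nr1d1: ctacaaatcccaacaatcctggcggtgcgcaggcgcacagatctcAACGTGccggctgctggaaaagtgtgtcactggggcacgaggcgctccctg
Cry2: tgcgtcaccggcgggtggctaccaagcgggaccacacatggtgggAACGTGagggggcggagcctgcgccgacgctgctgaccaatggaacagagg
Per3: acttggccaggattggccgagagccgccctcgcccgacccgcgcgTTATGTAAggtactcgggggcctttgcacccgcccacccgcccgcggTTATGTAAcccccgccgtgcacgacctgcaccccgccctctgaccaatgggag
Arntl: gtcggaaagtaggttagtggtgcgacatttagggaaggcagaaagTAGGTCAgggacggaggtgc

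The E-box was in 2 of the 13 member windows and in 7.15% of all 32851 promoter windows, and the E-prime-box was in 3 of the 13 and in 4.68% of all. The D-box was in 0.938% of all windows and the RORE core in 2.61%. The cAMP response element was in 1.79% of all windows and in 0 of the 13 member windows. The E-box of Per1 lay 166 bases before the start and that of Cry1 60 bases before it. The windows of Clock, Npas2 and Nr1d2 held none of these 5 motifs, which says only that these letters are not in these windows. A search for CCAAT, common in promoters and not specific to the clock, matched 9 of the 13 member windows and 37.4% of all windows. The start of the cAMP response element, TGACG, was in 4 of the 13 and in 20.8% of all. These matches are descriptions of sequence, and no binding was measured.

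The libraries held 17084475 to 21887462 reads, and each member had between 109 and 2387 reads in a library, so all 10 passed the filter on low counts. Levels below are in CPM, read counts scaled to a common library size with TMM factors (trimmed mean of M-values). Wdr72 averaged 45.1 ± 38.9 CPM in KO and 243 ± 63.6 CPM in WT (SD, n = 4 each), with KO 1 the highest of the KO libraries at 102 CPM and WT 2 the lowest of the WT libraries at 173 CPM. Its log2 fold change was -2.43 (SE 0.47), and its adjusted p of 0.080 in edgeR missed the threshold of 0.05 used below. The 10 ameloblast markers, among them Amelx, Ambn and Klk4, were all detected and summed to 59818 to 81275 CPM in KO and 53653 to 98065 CPM in WT. Of these markers 5 were above 0 and 5 below, with log2 fold changes from -2.43 to 1.41. The lowest value is the same as that of Wdr72 to every digit given, so Wdr72 is taken to be 1 of these 10 markers. At an unadjusted p of 0.05 in edgeR 1 was higher and 1 lower, where 8.70% and 6.98% of all genes were. The 1 lower is then Wdr72, the gene knocked out (unadjusted p = 0.00024 in edgeR), which says nothing about the amount of ameloblasts. KO 5 stood apart, with a mean correlation of 0.965 with the other libraries against 0.980 to 0.983 for the rest. Libraries also differed in how their levels followed gene length and base composition across 14556 genes. The Spearman correlation of a library's deviation with gene length was -0.14, 0.41, 0.18 and -0.53 in KO 1, 3, 4 and 5, against 0.15, 0.048, 0.18 and 0.27 in WT 2, 3, 4 and 5. With GC content it was -0.057 to 0.39 in KO and -0.47 to -0.17 in WT.

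All 10 clock genes were expressed in the molar samples, over a wide range of levels per length. Levels in RPKM, which is CPM per kilobase of the authors' gene length, were highest for Nr1d2, at 16.4 ± 2.35 in KO and 19.4 ± 1.82 in WT. Npas2 was the lowest, at 1.48 ± 0.151 in KO and 1.33 ± 0.177 in WT. In KO the order from high to low was Nr1d2, Per1, Nr1d1, Clock, Cry1, Per3, Cry2, Arntl, Per2 and Npas2. The KO libraries of neighbours in that order overlapped, except at the 2 steps from Nr1d2 to Per1 and from Per2 to Npas2. In WT the order was Nr1d2, Clock, Nr1d1, Per1, Per3, Cry1, Arntl, Cry2, Per2 and Npas2. The WT libraries separated Nr1d2 from Clock, Clock from Nr1d1, Cry1 from Arntl and Per2 from Npas2, and overlapped at every other step. Clock was thus at rank 4 in KO, at 5.23 ± 1.38 RPKM, and at rank 2 in WT, at 7.42 ± 0.409 RPKM (SD, n = 4 each).

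The comparison asked whether the clock genes differed between Wdr72-/- and wild-type molars. By edgeR's quasi-likelihood test 0 of the 10 members passed an adjusted p of 0.05, where 0.0309% of all 16205 tested genes did (5 genes). The other tests called 0 members as well, against 2.86% of all genes in DESeq2 and 6.57% in limma voom. At an unadjusted p of 0.05 in edgeR there were 2 members, Clock (lower in KO) and Per1 (higher in KO), which is 20% of the members against a background of 15.7% of all genes. With unadjusted p-values Clock alone was left with library totals, without KO 1 or without WT 4. Neither gene was left with the replicate block or in its 6 libraries. The members were Clock and Cry2 without WT 5, and Clock and Per3 with the length and GC trends removed. Cry2 joined Clock and Per1 in voom, and Nr1d2 joined them without KO 3. The share of all genes ran from 6.73% with the replicate block to 24.0% in voom. By direction, the edgeR counts are 1 member where 8.70% of all genes were higher and 1 where 6.98% were lower. Groups did not overlap for 2 members, Clock and Cry1, against 10.9% of all genes. These shares are near the background, so the counts give no result about the clock genes as a group. Log2 fold changes, KO over WT, ran from -0.50 to 0.48, with 5 members above 0 and 5 below, while the median over all tested genes was 0.021.

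**Figure D1:**
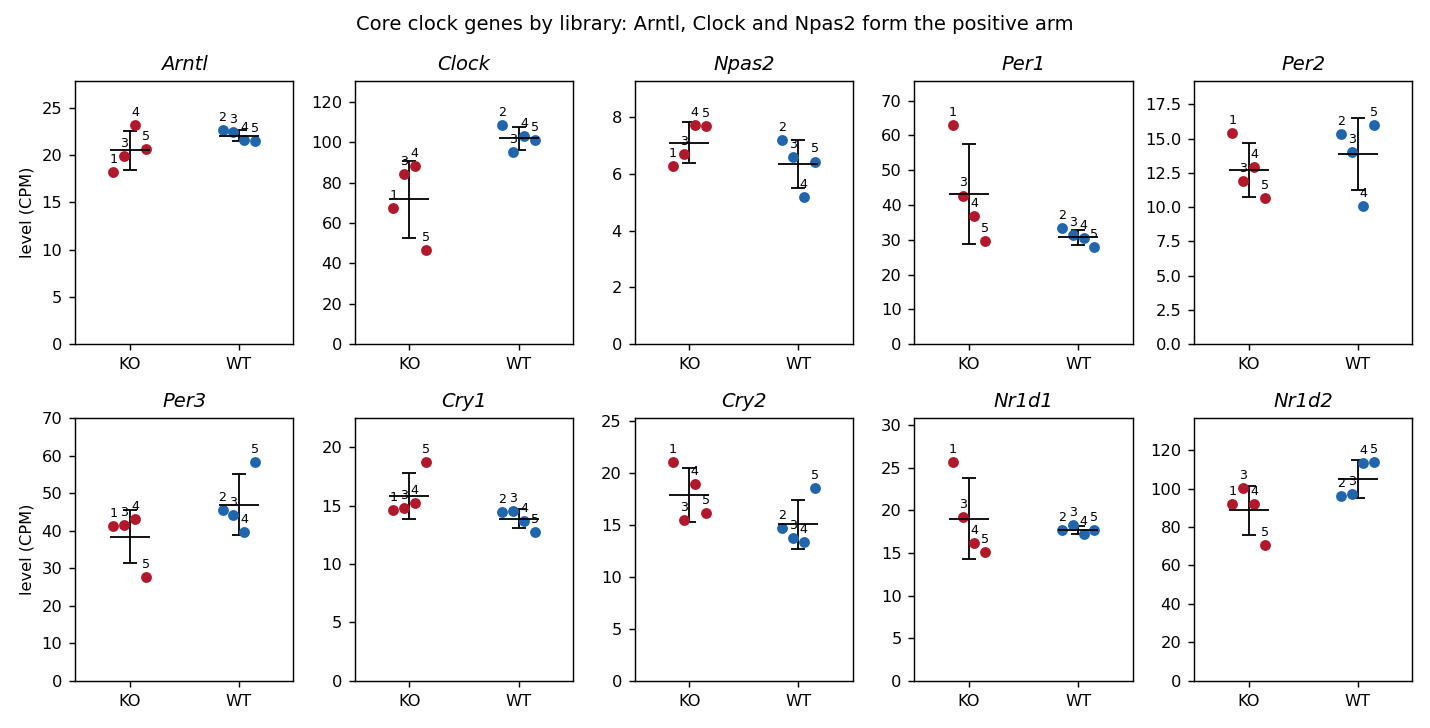
Level of each of the 10 clock genes in CPM (vertical axes, from 0) in the 4 KO libraries (red, left) and the 4 WT libraries (blue, right), with the library number beside each point; horizontal marks and bars are mean ± SD. The KO values of Clock lie below all WT values, and Per1 in KO 1 (63.0 CPM) is far above the other libraries.

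Of the positive arm, Clock (ENSMUSG00000029238, chromosome 5, 76209868 to 76304792) differed most. It encodes the histone acetyltransferase and transcription factor that partners BMAL1. It stood at 67.4, 84.4, 88.3 and 46.8 CPM in KO 1, 3, 4 and 5, against 109, 95.0, 103 and 101 CPM in WT 2, 3, 4 and 5. Each KO library was below each WT library, and KO 5 was the lowest. The KO mean was 70.4% of the WT mean, with a log2 fold change of -0.50 (SE 0.17, unadjusted p = 0.012 and adjusted p = 0.21 in edgeR). Clock has the longest transcript set of the members (13727 bases), and KO 5, the lowest library, was also the one with the most negative length trend. KO 3 had the most positive length trend (0.41), and its Clock value of 84.4 CPM was also below all WT libraries. The part of gene length in the Clock values was not tested. With the length and GC trends removed the log2 fold change was -0.30 (adjusted p = 0.16 in edgeR), without KO 1 and KO 5 it was -0.24 (adjusted p = 0.33 in edgeR), and in voom it was -0.33 (adjusted p = 0.080). Clock was lower in KO in each of the 19 alternatives run, and passed an adjusted p of 0.05 in 0 of them.

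Arntl (ENSMUSG00000055116, chromosome 7, 113207465 to 113314126), which encodes BMAL1, the member without which the loop does not run in mice, was at 18.2, 19.96, 23.2 and 20.6 CPM in KO 1, 3, 4 and 5, against 22.6, 22.5, 21.6 and 21.5 CPM in WT 2, 3, 4 and 5. The groups overlapped through KO 4, the highest of the 8 libraries, and KO 1 was the lowest. The log2 fold change was -0.11 (SE 0.11, adjusted p = 0.64 in edgeR), and it was -0.051 without KO 1 and -0.17 without KO 4. Npas2 (ENSMUSG00000026077, chromosome 1, 39193731 to 39363236), the paralogue that can stand in for CLOCK, averaged 7.10 ± 0.724 CPM in KO and 6.35 ± 0.850 CPM in WT (SD, n = 4 each). Its log2 fold change was 0.16 (SE 0.16, and 0.068 without WT 4), and the groups overlapped. The positive arm thus held Clock below the WT range while Arntl and Npas2 overlapped it.

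Of the Period genes, which encode the PAS-domain repressors, Per1 (ENSMUSG00000020893, chromosome 11, 69095217 to 69109960) was at 63.0, 42.7, 36.8 and 29.6 CPM in KO 1, 3, 4 and 5, against 33.3, 31.3, 30.5 and 28.0 CPM in WT 2, 3, 4 and 5. KO 1, 3 and 4 were above all WT libraries and KO 5 was among them. The log2 fold change was 0.48 (SE 0.19, unadjusted p = 0.028 and adjusted p = 0.27 in edgeR). Without KO 1 it was 0.24 (adjusted p = 0.47 in edgeR), and with the length and GC trends removed it was 0.31 (adjusted p = 0.48 in edgeR). Per1 was higher in KO in each of the 19 alternatives, with adjusted p-values from 0.075 in voom to 0.78 with the replicate block.

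The other Period genes stood on the other side of 0. Per2 (ENSMUSG00000055866, chromosome 1, 91415982 to 91459324) averaged 12.7 ± 1.999 CPM in KO and 13.9 ± 2.63 CPM in WT (SD, n = 4 each), with a log2 fold change of -0.13 (SE 0.17) that ran from -0.26 without WT 4 to -0.050 without WT 5. Per3 (ENSMUSG00000028957, chromosome 4, 151003652 to 151044665) was at 41.2, 41.6, 43.2 and 27.8 CPM in KO 1, 3, 4 and 5, against 45.5, 44.2, 39.6 and 58.4 CPM in WT 2, 3, 4 and 5. KO 5 was the lowest and WT 5 the highest, and the groups overlapped. The log2 fold change was -0.29 (SE 0.16, unadjusted p = 0.099 in edgeR), and it was -0.16 without KO 5 and -0.16 without WT 5. Per3 lies within the bounds of Camta1, transcribed from the same strand and with 101% as many reads, although the genes share no exonic base in GENCODE M21. Camta1 averaged 40.2 ± 5.89 CPM in KO and 45.7 ± 1.07 CPM in WT (SD, n = 4 each).

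The cryptochromes, the repressors that bind the CLOCK and BMAL1 dimer most directly, were both above 0. Cry1 (ENSMUSG00000020038, chromosome 10, 85131700 to 85185064) was at 14.6, 14.8, 15.2 and 18.8 CPM in KO 1, 3, 4 and 5, against 14.5, 14.6, 13.7 and 12.8 CPM in WT 2, 3, 4 and 5. The groups did not overlap, but KO 1 (14.60 CPM) and WT 3 (14.56 CPM) were nearly equal, and KO 5 lay far above the other KO libraries. The log2 fold change was 0.19 (SE 0.12, adjusted p = 0.46 in edgeR), and it was 0.10 without KO 5 and 0.10 with the length and GC trends removed. Cry2 (ENSMUSG00000068742, chromosome 2, 92403646 to 92434043) averaged 17.9 ± 2.60 CPM in KO and 15.05 ± 2.36 CPM in WT (SD, n = 4 each), with a log2 fold change of 0.25 (SE 0.15) that was 0.16 without KO 1 and 0.13 with the trends removed. WT 5, at 18.5 CPM, lay within the KO range, and in voom the adjusted p was 0.094.

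The REV-ERB genes, which repress Arntl through RORE sequences, pointed in different directions. Nr1d1 (ENSMUSG00000020889, chromosome 11, 98767932 to 98775333) was at 25.7, 19.2, 16.2 and 15.1 CPM in KO 1, 3, 4 and 5, against 17.7, 18.3, 17.2 and 17.6 CPM in WT 2, 3, 4 and 5. The WT libraries were within 1.14 CPM of each other, while the KO libraries lay on both sides of them. The log2 fold change was 0.10 (SE 0.16), and it was -0.074 without KO 1 and -0.085 with the length and GC trends removed. The 3′ part of Nr1d1 overlaps Thra, a thyroid hormone receptor gene on the opposite strand, over 263 exonic bases (8.55% of the exonic bases of Nr1d1). Thra had 432% as many reads as Nr1d1 and averaged 84.6 ± 12.5 CPM in KO and 73.5 ± 6.45 CPM in WT (SD, n = 4 each), so the Nr1d1 count is uncertain. Nr1d2 (ENSMUSG00000021775, chromosome 14, 18204054 to 18239127) was at 91.8, 100.1, 91.9 and 70.5 CPM in KO 1, 3, 4 and 5, against 96.0, 97.2, 113 and 114 CPM in WT 2, 3, 4 and 5. KO 5 was again the lowest, and KO 3 lay within the WT range. The log2 fold change was -0.25 (SE 0.13, unadjusted p = 0.075 in edgeR), and it was -0.15 without KO 5 and -0.11 with the length and GC trends removed.

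**Figure D2:**
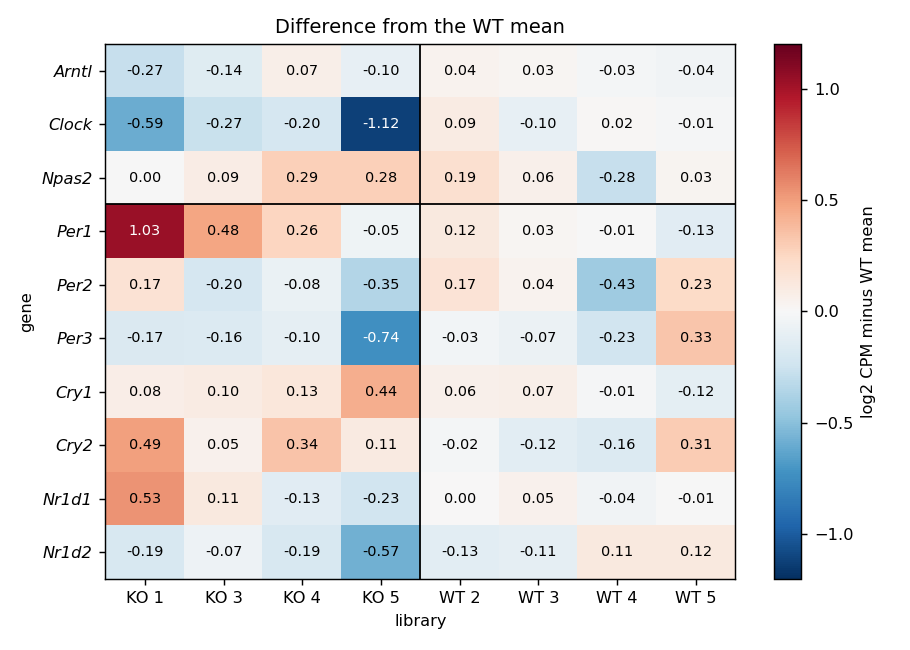
Difference of each library from the WT mean in log2 CPM (colour and printed value) for the 10 clock genes (rows; positive arm above the line) in the KO libraries (left of the line) and WT libraries (right). KO 5 has its lowest value at Clock (-1.12) and KO 1 its highest at Per1 (1.03).

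The KO libraries did not share 1 pattern over all members. Clock, Per3 and Nr1d2 were below the WT mean in every KO library, and Cry1 and Cry2 were above it. The signs of the other members differed between KO libraries. Relative to the WT mean, KO 1 had Per1 at 1.03 on the log2 scale and Clock at -0.59. KO 5 had 7 of 10 members below the WT mean, with Clock at -1.12 and Cry1, its highest, at 0.44. KO 3 and KO 4 each had 5 members above and 5 below. Clock was the lowest member relative to the WT mean in all 4 KO libraries, at -0.27 in KO 3 and -0.20 in KO 4.

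The arms were then compared within each library, as the mean log2 CPM of the 3 positive genes and of the 7 negative genes. The positive arm averaged 4.44 ± 0.171 in KO and 4.61 ± 0.0832 in WT (SD, n = 4 each), and the negative arm 4.73 ± 0.196 in KO and 4.69 ± 0.0890 in WT. The difference, positive minus negative, was -0.65, -0.24, -0.065 and -0.19 in KO 1, 3, 4 and 5, against -0.0025, -0.073, -0.072 and -0.20 in WT 2, 3, 4 and 5. KO 1 and KO 3 were below the WT range, and KO 4 and KO 5 were within it. KO 5 (-0.195) was within it only through WT 5 (-0.197), and lay below the other WT libraries. The KO mean was -0.29 ± 0.255 and the WT mean -0.086 ± 0.0807, a gap of -0.20 where the pooled SD was 0.19. The gap was -0.080 without KO 1, -0.066 without KO 1 and KO 5, and -0.048 with the length and GC trends removed. As a score over chosen genes it was given no test. Of the 3 positive genes, Clock had a log2 fold change of -0.50, Arntl of -0.11 and Npas2 of 0.16. Arntl and Npas2 thus lay on opposite sides of 0, and the lower mean of the positive arm in KO rested mainly on Clock. The KO mean minus the WT mean was -0.16 for the positive arm and 0.038 for the negative arm. The gap without Clock was not computed.

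**Figure D3:**
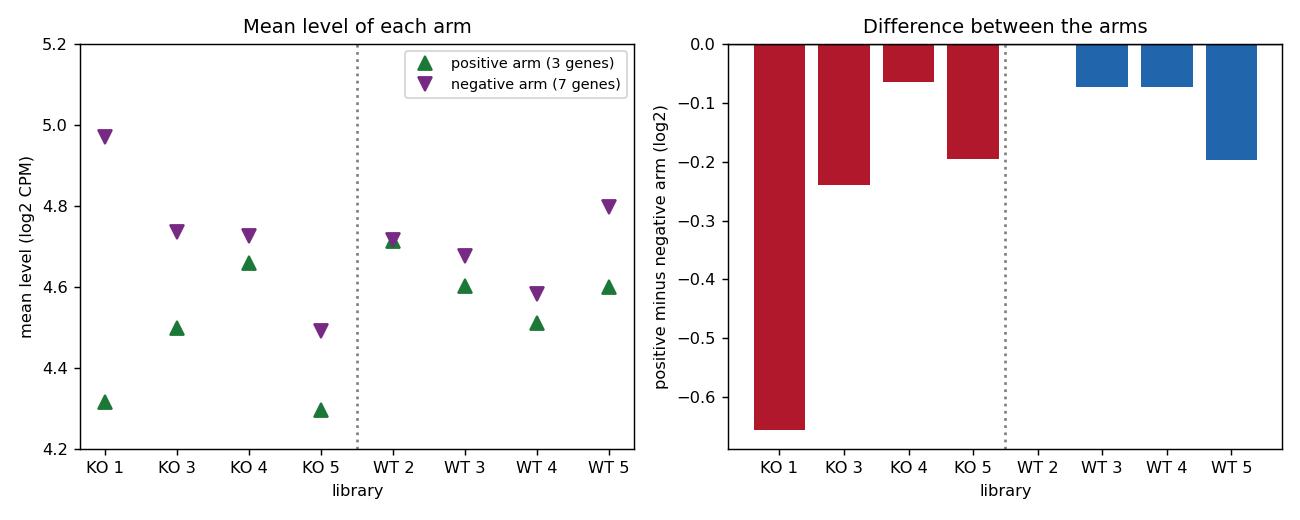
Left, mean level in log2 CPM of the positive arm (3 genes, upward triangles) and of the negative arm (7 genes, downward triangles) in each library; right, positive minus negative arm, with KO in red and WT in blue. The bar of KO 1 (-0.65) is the longest, and that of WT 2 (-0.0025) is too short to see. KO 4 and KO 5 fall within the range of the WT bars, KO 5 only just.

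Genes of opposite phase were also compared across the 8 libraries. Arntl had a Pearson r of -0.73 with Per1 (exact permutation over 40320 orders, two-sided, p = 0.044) and of -0.73 with Nr1d1 (exact permutation p = 0.052). The Spearman rho was -0.19 with Per1 (exact permutation p = 0.66) and -0.45 with Nr1d1 (exact permutation p = 0.27). Adjusted over the 9 relations of Arntl with the other members, both Pearson p-values were 0.23 and both failed the correction. For the other 7 relations r ran from -0.46 with Cry2 to 0.54 with Clock, and their adjusted p-values by the exact permutation test from 0.51 to 0.95. Without KO 1 and KO 3, the libraries farthest from the median of Arntl, r was 0.83 with Per1 and 0.44 with Nr1d1. The remaining libraries thus did not show the negative relations, over a narrower range of Arntl. Without KO 1 alone r was -0.18 with Per1 and -0.13 with Nr1d1. With KO 5 alone left out it was -0.81 with Per1 and -0.91 with Nr1d1. Taken as deviations from each group's mean, r was -0.61 with Per1 and -0.76 with Nr1d1. With the length and GC trends removed r was -0.81 with Per1 and -0.80 with Nr1d1, each with an adjusted p of 0.049 by the exact permutation test. In those trend-corrected data the adjusted p of rho was 0.12 for both.

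Spread within groups differed between members. The pooled within-group SD of log2 CPM was 0.11 for Arntl, which put it at the 7.8th percentile of all 16205 genes, and 0.13 for Cry1, at the 15.5th percentile. It was 0.33 for Per1, at the 69.0th percentile, and 0.30 for Clock, at the 62.6th. The other 6 members lay between the 29.0th and the 55.7th percentile. No member was therefore among the most variable of all 16205 genes. These percentiles were taken over genes of all levels, and genes of like level were not compared separately.

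Likeness to Arntl and Nr1d1 was described over 11179 other protein-coding genes with a mean of at least 5 CPM. The genes most like Arntl across the 8 libraries were Snx25 (r = 0.96), Dars (0.93), Mkks (0.92), Pak3 (0.91) and Tmem170 (0.90), and Clock ranked 796th (0.54). The genes most like Nr1d1 were Epha2 (r = 0.98), Slc43a2 (0.96), Tnk1 (0.95), Spata7 (0.92) and Dusp6 (0.91), and Per1 ranked 24th (0.86). Arntl ranked 11049th for Nr1d1. These likenesses rest on 8 libraries, include the difference between the groups and were not tested.

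Partners and modifiers of the loop were read from a list of 26 genes, of which 25 were tested. By edgeR 0 passed an adjusted p of 0.05 in either direction. At an unadjusted p of 0.05 in edgeR, 3 of 25 were higher in KO and 0 were lower, where 8.70% and 6.98% of all genes were. Their median log2 fold change was -0.084, with 10 above 0 and 15 below, against 0.021 over all tested genes. Nfil3, a repressor that competes with DBP at D-boxes, was at 22.5, 26.8, 26.8 and 37.0 CPM in KO 1, 3, 4 and 5, against 19.99, 18.5, 19.5 and 21.9 CPM in WT 2, 3, 4 and 5. All KO libraries were above all WT libraries, KO 5 most. Its log2 fold change was 0.50 (SE 0.15, adjusted p = 0.17 in edgeR), and it passed in voom alone of the alternatives (adjusted p = 0.021). Csnk1e, a kinase that marks PER proteins for degradation, averaged 58.2 ± 3.42 CPM in KO and 47.8 ± 1.06 CPM in WT (SD, n = 4 each; log2 fold change 0.29, SE 0.093, adjusted p = 0.21 in edgeR).

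Rora encodes a ROR receptor, which activates Arntl through RORE sequences. Rora was at 28.2, 29.1, 27.9 and 17.9 CPM in KO 1, 3, 4 and 5, against 30.1, 30.0, 40.3 and 31.3 CPM in WT 2, 3, 4 and 5. The groups did not overlap, by a narrow gap, with KO 5 the lowest and WT 4 the highest (log2 fold change -0.35, SE 0.16, adjusted p = 0.32 in edgeR). This log2 fold change was -0.21 without KO 5 and -0.13 with the length and GC trends removed. Arntl2, a paralogue of Arntl, averaged 6.09 ± 1.31 CPM in KO and 8.72 ± 2.54 CPM in WT (log2 fold change -0.51, SE 0.24, adjusted p = 0.32 in edgeR). Ciart, a repressor of the CLOCK and BMAL1 dimer, averaged 2.11 ± 0.503 CPM in KO and 2.32 ± 0.393 CPM in WT (log2 fold change -0.14, SE 0.24).

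Outputs of the clock, genes driven by E-boxes or D-boxes, were read from a list of 17 genes that shares members with the list of partners, and all 17 were tested. By edgeR 0 passed an adjusted p of 0.05, and with unadjusted p-values 4 of 17 were higher in KO and 2 were lower at 0.05, where 8.70% and 6.98% of all genes were. The median log2 fold change was 0.020, with 10 above 0 and 7 below. Dbp, a direct E-box target and the usual marker of clock output, averaged 16.1 ± 1.41 CPM in KO and 15.9 ± 2.74 CPM in WT (SD, n = 4 each). Its log2 fold change was 0.019 (SE 0.14) and was below 0 in 6 of the 19 alternatives, among them library totals. Tef, a PAR-domain factor like DBP, averaged 119 ± 7.82 CPM in KO and 129 ± 7.73 CPM in WT (log2 fold change -0.12, SE 0.10). Hlf, the third of that family, was at 146, 134, 98.1 and 76.6 CPM in KO 1, 3, 4 and 5, against 41.0, 72.4, 144 and 82.7 CPM in WT 2, 3, 4 and 5. The groups overlapped, with KO 1 the highest library and WT 2 the lowest (log2 fold change 0.42, SE 0.31, and 0.18 without WT 2, 0.28 without KO 1 and 0.79 without WT 4).

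Among the remaining outputs, Wee1, an E-box-driven kinase that holds back mitosis, was at 22.8, 16.9, 20.2 and 16.0 CPM in KO 1, 3, 4 and 5, against 36.3, 30.6, 23.4 and 26.6 CPM in WT 2, 3, 4 and 5. Each KO library was below each WT library (log2 fold change -0.62, SE 0.16, adjusted p = 0.13 in edgeR). Wee1 passed in DESeq2 (adjusted p = 0.021), in voom (adjusted p = 0.014) and in edgeR with no low-count filter (adjusted p = 0.029). Bhlhe40, which encodes the E-box repressor DEC1, averaged 221 ± 19.7 CPM in KO and 176 ± 10.4 CPM in WT (SD, n = 4 each) with groups that did not overlap (log2 fold change 0.33, SE 0.11, adjusted p = 0.21 in edgeR). Its paralogue Bhlhe41 averaged 6.28 ± 1.15 CPM in KO and 5.56 ± 0.594 CPM in WT (log2 fold change 0.18, SE 0.17).

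**Figure D4:**
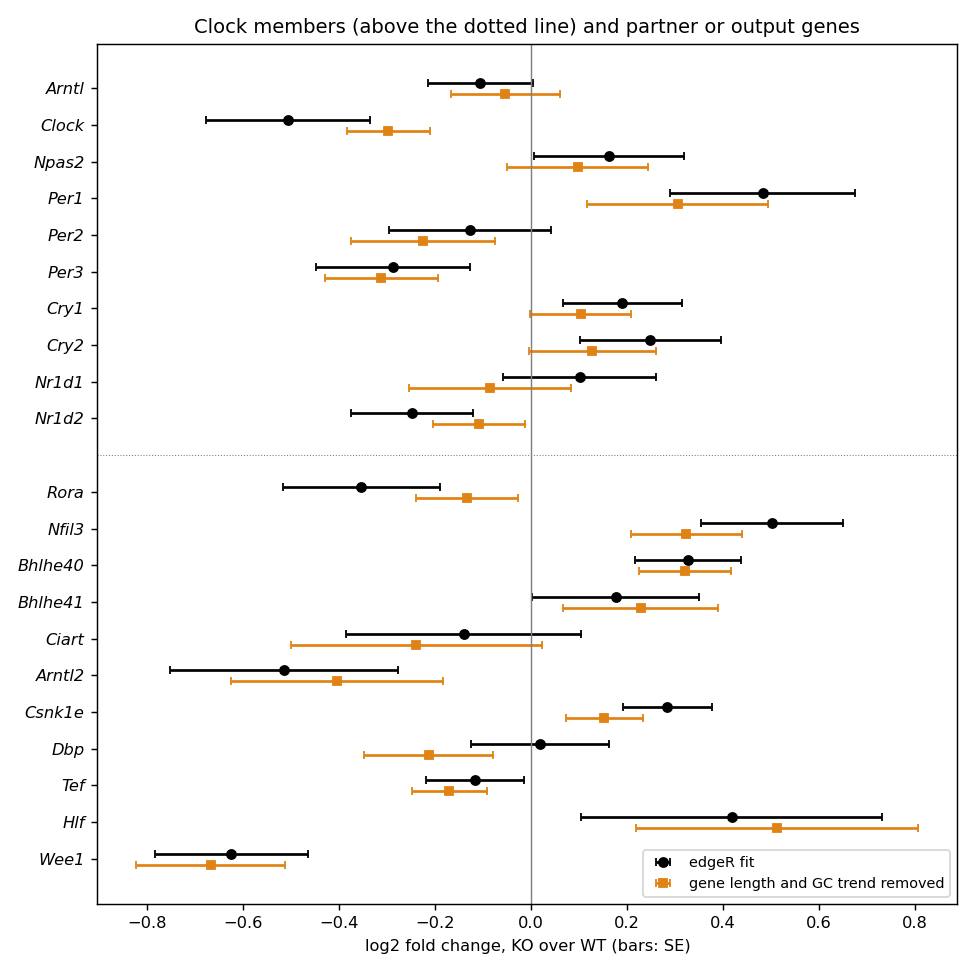
Log2 fold changes, KO over WT (horizontal axis; bars are SE), of the 10 clock genes above the dotted line and of 11 partner and output genes below it, from the edgeR fit (black circles) and with gene length and GC trends removed (orange squares). Clock moves from -0.50 to -0.30 and Per1 from 0.48 to 0.31 when the trends are removed, and Dbp lies near 0 in the first and at -0.21 in the second.

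Per1 is also known to respond directly to glucocorticoids and to growth factor and cAMP signals, apart from the loop. Whether such signals had a part in the Per1 values here was not tested. Of 16 glucocorticoid-responsive genes, 0 passed an adjusted p of 0.05 and 0 an unadjusted p of 0.05 in edgeR, which 15.7% of all genes did. Their median log2 fold change was -0.052, with values from -0.54 for Klf15 to 0.090, and Ddit4, with the smallest p, was at -0.33 (SE 0.15). Ddit4 passed in voom (adjusted p = 0.018). Of 20 immediate early genes 0 passed in edgeR, and with unadjusted p-values 3 were higher in KO and 0 were lower at 0.05, where 8.70% and 6.98% of all genes were. Their median log2 fold change was 0.14, with 13 above 0 and 7 below. Egr1, a growth-factor-induced zinc finger factor, was at 60.4, 42.9, 35.3 and 33.1 CPM in KO 1, 3, 4 and 5, against 23.5, 20.05, 31.8 and 30.7 CPM in WT 2, 3, 4 and 5. KO 1 was the highest library for Egr1, as it was for Per1 and Nr1d1 (Egr1 log2 fold change 0.69, SE 0.20, adjusted p = 0.17 in edgeR). Egr2 averaged 1.19 ± 0.0876 CPM in KO and 0.548 ± 0.164 CPM in WT (log2 fold change 1.13, SE 0.31, adjusted p = 0.15 in edgeR), and both Egr1 and Egr2 passed in voom. Egr2 was near the floor, at the 8.3rd percentile of mean CPM over all tested genes.

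Markers of 5 other cell types were read beside these values, and their part in any clock gene was not tested. Over all genes, 8.70% were higher in KO and 6.98% lower at an unadjusted p of 0.05 in edgeR. Oral keratinocyte markers summed to 589 to 866 CPM in KO and 745 to 1423 CPM in WT, with 14 of 14 tested members below 0 and a median log2 fold change of -1.33. Of those 14, 12 were lower at an unadjusted p of 0.05 and 2 at an adjusted p of 0.05 in edgeR, so these 2 are among the 5 genes called in all. Mesenchyme markers summed to 46051 to 67623 CPM in KO and 31451 to 59824 CPM in WT, with 14 of 15 members above 0, 9 of them at an unadjusted p of 0.05. The highest WT sum was that of WT 5, while WT 2, 3 and 4 were at 34295, 31451 and 33461 CPM. Leukocyte markers summed to 278 to 411 CPM in KO and 243 to 271 CPM in WT, with 11 of 12 above 0, 5 of them at an unadjusted p of 0.05. Odontoblast markers summed to 23687 to 33538 CPM in KO and 18653 to 36025 CPM in WT, with 5 of 8 above 0, 3 of them at an unadjusted p of 0.05 and 1 at an adjusted p of 0.05 in edgeR. WT 5 again had the highest WT sum, with WT 2, 3 and 4 at 19333, 18653 and 21503 CPM. Skeletal muscle markers summed to 61.2 to 121 CPM in KO and 68.8 to 118 CPM in WT, with 7 of 10 above 0 and 0 at an unadjusted p of 0.05 in edgeR. None of these 5 lists held a gene at 0 reads in all libraries.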

How the data were processed

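The authors deposited 1 table of whole-number read counts per Ensembl gene in 8 libraries, with gene lengths. Libraries were polyA-selected, per the labels' protocols. CASAVA and mm39 are named in the submitters' processing notes, but 98.8% of the 54409 gene IDs shared with GENCODE M21 had the same start on GRCm38, as did all 10 members. Aligner, counter and strandedness: not given in the sources used here.

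Genes were kept by filterByExpr (minimum count 10, minimum total 15), which left 16205. KO was compared with WT by edgeR 4.0.16 (R 4.3.3), quasi-likelihood, TMM, robust, no covariate, two-sided, with Benjamini-Hochberg adjustment over all tested genes and a threshold of 0.05. SE is the size of the log2 fold change over the square root of F. Log2 CPM used a prior count of 2. The biological coefficient of variation was 17.8%. Alternatives were other scalings and filters, DESeq2 1.42.0, limma 3.58.1 voom with quality weights, a replicate block and libraries left out. Removal of length and GC trends (natural splines per library, GC known for 99.9% of tested genes) and the unblocked fit of 6 libraries were added after the data were seen.

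Members and lists were chosen with earlier results of these data known. Named were all members, 10 fixed clock genes (1 is not reported here), overlapping genes, and from each of the partner, output, glucocorticoid and immediate early lists as many as 4 called genes, or with none called the 2 of lowest p, plus the 5 genes most like Arntl and Nr1d1.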

Additional observations from a re-analysis of the deposited data

Results flagged for a closer look

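A library far from the other 3 of its group was found in 5 of the 56 groups of 4 libraries checked with Dixon's test at its 95% critical value, and chance gives about 1 in 20. In KO 5, Per3 was low at 27.8 CPM, Rora was low at 17.9 CPM and Cry1 was high at 18.8 CPM. In WT 4, Rora was high at 40.3 CPM. In WT 5, Bhlhe41 was high at 6.44 CPM.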

How the results depend on the processing

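At 109 to 2387 reads per member and library, 0 of 10 members passed an adjusted p of 0.05 in the edgeR fit reported and in each of the 19 alternatives; the lowest adjusted p of any member was 0.075 (Per1, voom). Of the members, 9 kept their direction in all alternatives, and the log2 fold change of Nr1d1 turned to -0.082 with the replicate block, -0.075 in the same 6 libraries without it, -0.074 without KO 1 (range with 1 library left out -0.074 to 0.20), -0.0068 without KO 1 and KO 5, and -0.085 with the length and GC trends removed. Dbp turned to -0.033 with library totals, -0.097 in voom, -0.037 without KO 1, -0.097 without WT 4 (range -0.097 to 0.094), -0.062 without KO 1 and KO 5, and -0.21 with the trends removed. Ciart turned to 0.038 in voom. The causes were not tested.

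The count of changed genes, 5, was 2 with library totals, 241 with no low-count filter, 464 in DESeq2, 1065 in voom, 11 without KO 1 and KO 5, 24 with the trends removed, and 0 to 55 with 1 library left out (0 without KO 3, KO 4, WT 2 or WT 3, 16 without WT 4 and 55 without KO 5). The arm gap ran from -0.28 to -0.080 with 1 library left out. The count of Arntl relations past 0.05 was 0 and became 2 with the trends removed.

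Both groups carry numbers 3, 4 and 5. Between deviations from the group means, the same-numbered libraries had r = -0.14, -0.092 and -0.12. Differently numbered libraries ran from -0.24 (KO 4 with WT 3) to 0.27 (KO 4 with WT 5). The same-numbered values lie within that range, so they cannot show whether the numbers pair the libraries. The replicate block called 1 gene, as did the same 6 libraries without a block. The arm gap was -0.053 in those 6 libraries. It is computed from log2 CPM without the block, so it cannot show an effect of blocking. No correlation was computed under the block.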

Other observations

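Among all 45 pairs of clock genes, the largest correlation across the 8 libraries was that of Cry1 with Nr1d2 (r = -0.96), which was -0.94 with the length and GC trends removed, -0.87 without KO 5 and -0.98 without KO 1. Cry1 with Per3 had r = -0.91, and -0.84, -0.71 and -0.91 under the same settings. Clock with Nr1d2 had r = 0.87, but 0.38 with the trends removed and 0.55 without KO 5. Per1 with Nr1d1 had r = 0.86, and 0.41 without KO 1. These pairs were chosen after their values were seen, all share the same 8 libraries and their scaling, and they are given as descriptions with no test.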
